A study of Mus musculus with 10 samples.

Results

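The mammalian circadian clock is a transcriptional feedback loop, and 10 of its genes were followed here in inflamed mouse skin: the activators Arntl, Clock and Npas2, the period genes Per1, Per2 and Per3, the cryptochromes Cry1 and Cry2, and the Rev-erb receptors Nr1d1 and Nr1d2. They were taken by symbol from a table of 17016 genes. All 10 were present, and all 10 were among the 14548 genes that passed a filter on low values.

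The libraries were bulk RNA-seq of whole dorsal skin from female BALB/c mice aged 10 to 11 weeks, with no genetic modification named in the labels, in which psoriasis-like inflammation was induced with 5% imiquimod cream, an agonist of an innate immune receptor, on shaved skin for 5 days. All 10 libraries carry the imiquimod treatment, so no untreated skin enters any comparison. In 5 libraries the mice received vehicle, and in 5 they were also given the DRD2 dopamine receptor agonist quinpirole by 5 intraperitoneal injections given alongside the cream. Whether each library is a different mouse is not stated in the labels, so p-values here reflect only the spread among the samples, which may be technical. The time of day of collection is not given in the sources used here, and no clock phase can be assigned to a library. Whether both groups were collected at the same time is not given either. A difference by treatment therefore cannot be told apart from one by time of collection.

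In the loop, ARNTL (also called BMAL1) pairs with CLOCK, or with its relative NPAS2, and the pair binds E-box sequences in the promoters of the Per, Cry and Nr1d genes. PER and CRY proteins return to the nucleus and inhibit the pair, and the NR1D receptors repress Arntl through ROR elements, which their competitors, the ROR receptors, activate. A further arm, in which DBP, TEF and HLF activate and NFIL3 represses through D-boxes, feeds back on the period genes. Because of this wiring, transcripts of the Arntl arm and of the Per3, Nr1d and Dbp arm peak at different times of day in most tissues, skin included. In skin the loop runs in keratinocytes, fibroblasts and hair follicles.

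Start-site windows of the loop's own genes were searched for the elements through which it acts. The RefSeq promoter table (GRCm38.p6) held windows for 9 of the 10 members, all but Per2. Sequences shown are the 250 bases before an annotated start site, 5′ to 3′ on the gene's strand, and were chosen because they carry an element of the loop, which is in capitals. The E-box CACGTG and its variant CACGTT, which reads AACGTG on the other strand, mark the activator-bound class, and TTATGTAA marks the D-box. For Arntl a 30-base site after the start site is shown, with the ROR element core TAGGTCA in capitals.
Per1 (chr11:69098699-69098948, + strand): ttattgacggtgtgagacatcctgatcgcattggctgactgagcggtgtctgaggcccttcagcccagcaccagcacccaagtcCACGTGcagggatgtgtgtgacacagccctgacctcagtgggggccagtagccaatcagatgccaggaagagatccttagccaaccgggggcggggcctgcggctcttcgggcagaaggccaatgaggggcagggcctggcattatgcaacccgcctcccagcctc
Per3 (chr4:151044666-151044915, - strand): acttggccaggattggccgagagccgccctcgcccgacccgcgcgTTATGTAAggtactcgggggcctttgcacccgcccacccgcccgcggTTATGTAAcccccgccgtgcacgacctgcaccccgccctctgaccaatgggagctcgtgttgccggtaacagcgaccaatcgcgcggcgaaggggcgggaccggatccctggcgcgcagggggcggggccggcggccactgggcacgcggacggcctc
Cry1 (chr10:85185055-85185304, - strand): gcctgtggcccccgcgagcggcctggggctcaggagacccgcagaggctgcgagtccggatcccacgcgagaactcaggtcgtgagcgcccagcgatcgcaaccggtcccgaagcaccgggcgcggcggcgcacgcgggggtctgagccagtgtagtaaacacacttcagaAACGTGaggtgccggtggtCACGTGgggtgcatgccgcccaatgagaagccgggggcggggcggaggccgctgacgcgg
Cry2 (chr2:92434070-92434319, - strand): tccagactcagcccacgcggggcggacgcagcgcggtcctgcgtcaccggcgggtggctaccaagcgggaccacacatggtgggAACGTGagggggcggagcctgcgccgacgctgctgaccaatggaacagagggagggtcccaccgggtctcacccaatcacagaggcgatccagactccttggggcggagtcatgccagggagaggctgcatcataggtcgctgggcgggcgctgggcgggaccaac
Nr1d1 (chr11:98775378-98775627, - strand): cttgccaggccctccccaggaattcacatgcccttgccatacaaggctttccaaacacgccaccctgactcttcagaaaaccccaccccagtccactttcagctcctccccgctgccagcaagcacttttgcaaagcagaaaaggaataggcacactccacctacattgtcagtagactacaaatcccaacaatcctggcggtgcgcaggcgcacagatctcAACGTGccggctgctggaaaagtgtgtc
Arntl (chr7:113207530-113207559, + strand): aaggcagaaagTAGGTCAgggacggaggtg

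Per3 held the D-box at 2 places, 205 and 158 bases before the start site, and no E-box of either spelling. Cry1 held both spellings, AACGTG at 79 and CACGTG at 60 bases before the start. Per1 held CACGTG 166 bases before the start of the first of its 2 windows, Cry2 held AACGTG at 166 bases, and Nr1d1 held it at 28 bases. In Arntl the ROR core began at base 31 counted from the start site of its second window. The 5 windows of Clock, Npas2 and Nr1d2, the first window of Arntl and the second of Per1 held none of the motifs searched. The E-box CACGTG was in 2 of the 13 member windows and CACGTT in 3. Each motif was searched on both strands over the whole windows, which run on past the start site, and CACGTT was searched separately from CACGTG, with which it shares its first 5 letters. Of all 32851 windows in the table, 7.15% held CACGTG, 4.68% CACGTT, 0.938% TTATGTAA and 2.61% TAGGTCA. The D-box spelling TTACGTAA (0.119% of windows) and the cAMP response element TGACGTCA (1.79%) were in no member's window. A match is a description of the letters, and no binding was measured.

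The libraries held between 6763367 and 8361877 reads, and 1 read was worth 0.119 to 0.146 CPM. CPM, the unit of the levels given here, is a gene's reads over the size of its library, on a common scale. That size is the read total times a factor for each library (TMM). Whole-skin markers were found in every library, at levels that differed between markers. The basal keratin Krt14 lay between 5586 and 12990 CPM and the collagen gene Col1a1 between 227 and 1358 CPM. The lowest of the markers read was Pecam1, between 40.5 and 107 CPM. The main test, limma on log2(CPM + 1) with Benjamini-Hochberg adjustment over all 14548 genes, called 3 genes at an adjusted p of 0.05, which is 0.0206% of those tested. At an unadjusted p of 0.05 the same test passed 1657 genes, or 11.4%. Fold changes are on the log2(CPM + 1) scale, which understates the change of low genes, and are quinpirole over vehicle.

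By that test 0 of the 10 clock members were called, where 0.0206% of all genes were, 0.0137% as higher. At an unadjusted p of 0.05 the limma test passed 4 members, Per2, Per3, Cry2 and Nr1d2, all higher with quinpirole, where 6.92% of all genes passed in that direction and 4.47% in the other. Fitted values were higher in 8 members and lower in Arntl and Npas2, where 49.6% of all genes were higher. The members' median log2 fold change was 0.30, and that of all genes tested was -0.0021. In Per3 and Nr1d2 every quinpirole library was above every vehicle library, a separation that 2.20% of all genes showed in either direction and 1.34% in this one. DESeq2, run on the recovered reads as an alternative, called 3 members, Per2, Per3 and Nr1d2, all higher, where it called 1.51% of all genes, 1.03% as higher. edgeR's quasi-likelihood test on the same reads called 0 members and 0.00687% of all genes. In bulk skin, a change in the number of cells of a type and a change in RNA per cell cannot be told apart.

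**Figure D1:**
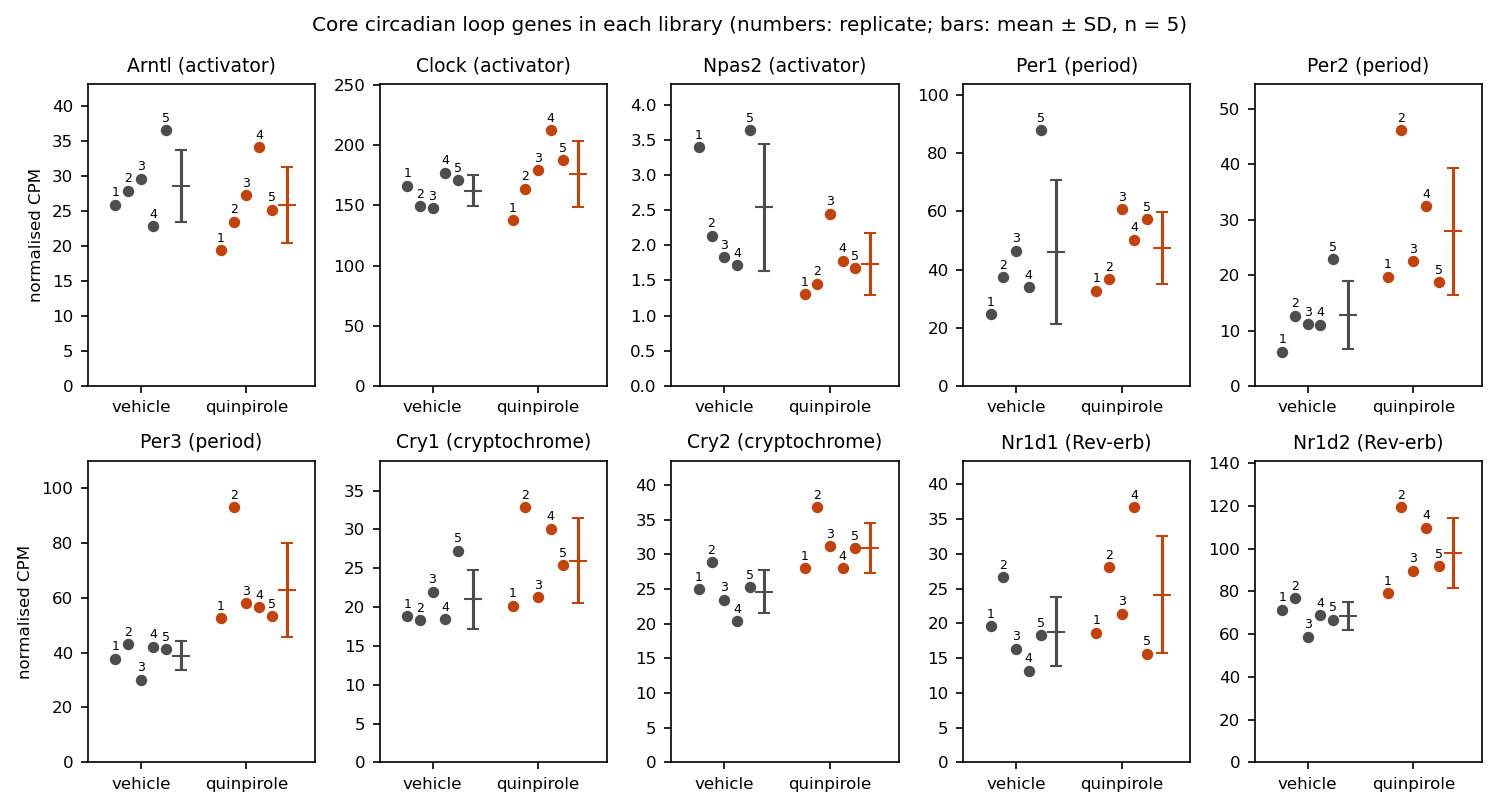
Level of each of the 10 clock members in each library, in CPM on axes that start at 0, with points for the 5 vehicle and 5 quinpirole libraries and a bar for each group's mean with its SD. Per3 and Nr1d2 show no overlap between the groups (30.1 to 43.0 against 52.5 to 93.0 CPM for Per3), whereas the groups overlap in Arntl, Clock and Per1.

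Among the activators, Arntl (chr7:113207465-113314126, + strand, mm10, GENCODE M21) encodes the obligate partner of the activating pair. Its level in vehicle replicates 1 to 5 was 25.9, 27.9, 29.6, 22.8 and 36.5 CPM, and in quinpirole replicates 1 to 5 it was 19.4, 23.4, 27.2, 34.1 and 25.2 CPM. The groups overlapped, with the highest library in the vehicle group and the lowest in the quinpirole group. Group means were 28.5 ± 5.10 and 25.8 ± 5.42 CPM (SD, n = 5 each), and the log2 fold change was -0.14 with a 95% interval of -0.48 to 0.20 (limma, unadjusted p = 0.374, adjusted p = 0.770). Leaving out 1 library gave -0.25 (without quinpirole replicate 4) to -0.050 (without quinpirole replicate 1).

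Clock (chr5:76209868-76304792, - strand), whose product pairs with ARNTL, had the smallest ratio of highest to lowest library of any member, 1.54. Vehicle libraries held 166, 149.5, 148, 177 and 171 CPM, and quinpirole libraries held 138, 164, 179, 212 and 188 CPM. The quinpirole values lay on both sides of the vehicle range, and the log2 fold change was 0.11 (95% interval -0.14 to 0.35, limma adjusted p = 0.764).

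Npas2 (chr1:39193731-39363236, + strand), which can replace CLOCK in the pair, was the lowest member, at 10 to 27 reads a library. Its vehicle values were 3.39, 2.13, 1.83, 1.72 and 3.63 CPM and its quinpirole values 1.31, 1.46, 2.45, 1.78 and 1.68 CPM. The 2 highest libraries were both vehicle, but the remaining 8 were interleaved. The log2 fold change was -0.35 (95% interval -0.78 to 0.07, limma adjusted p = 0.524). Read counting alone gives a coefficient of variation of 24.9% at this depth, beside 35.5% and 25.5% observed within the groups.

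The period genes encode inhibitors of the activating pair, and the fitted log2 fold changes of the 3 ranged from 0.14 to 1.09. Per1 (chr11:69095217-69109960, + strand), also an immediate-early gene induced through cAMP response elements, had vehicle values of 24.7, 37.4, 46.5, 33.9 and 87.9 CPM and quinpirole values of 32.8, 36.7, 60.7, 50.3 and 57.4 CPM. Vehicle replicate 5 alone was above every quinpirole library and the other vehicle libraries lay within or below them. The log2 fold change was 0.14 with a 95% interval of -0.50 to 0.77 (limma adjusted p = 0.898), and it turned to -0.046 when vehicle replicate 1 was left out.

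Per2 (chr1:91415982-91459324, - strand) had the largest log2 fold change of any member. Vehicle libraries held 6.16, 12.7, 11.1, 11.1 and 22.9 CPM and quinpirole libraries 19.7, 46.1, 22.5, 32.4 and 18.7 CPM. Only vehicle replicate 5 reached into the quinpirole range, where it lay above 3 of the 5 quinpirole libraries. Means were 12.8 ± 6.17 and 27.9 ± 11.5 CPM (SD, n = 5 each). The fitted log2 fold change was 1.09, with an SE of 0.31 and a 95% interval of 0.41 to 1.77. The limma test gave an unadjusted p of 0.00435 and an adjusted p of 0.235, and DESeq2 gave an adjusted p of 0.0459 at a log2 fold change of 1.12. Without quinpirole replicate 2 the limma log2 fold change was 0.89.

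Per3 (chr4:151003652-151044665, - strand), whose window holds the pair of D-boxes, separated the groups completely. Vehicle libraries held 37.8, 43.0, 30.1, 42.1 and 41.2 CPM and quinpirole libraries 52.5, 93.0, 57.9, 56.5 and 53.2 CPM. Quinpirole replicate 2 stood apart, and the other 4 quinpirole libraries lay between 52.5 and 57.9 CPM. Means were 38.8 ± 5.26 and 62.6 ± 17.1 CPM (SD, n = 5 each). The log2 fold change was 0.65 with an SE of 0.16 and a 95% interval of 0.30 to 1.0, at an unadjusted p of 0.00152 and an adjusted p of 0.192 by limma and an adjusted p of 0.0170 by DESeq2. Without quinpirole replicate 2 it was 0.50.

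The cryptochromes encode the other inhibitors of the activating pair. Cry1 (chr10:85131700-85185064, - strand) had vehicle values of 18.8, 18.4, 22.0, 18.5 and 27.2 CPM and quinpirole values of 20.2, 32.9, 21.2, 30.1 and 25.4 CPM. In 4 vehicle libraries Cry1 was at or below 22.0 CPM, but vehicle replicate 5 lay above 3 of the quinpirole libraries, and the log2 fold change was 0.29 (95% interval -0.06 to 0.63, limma adjusted p = 0.516). Cry2 (chr2:92403646-92434043, - strand) had vehicle values of 25.0, 28.9, 23.4, 20.3 and 25.3 CPM and quinpirole values of 28.0, 36.8, 31.2, 28.0 and 30.8 CPM. Only vehicle replicate 2 reached into the quinpirole range of Cry2. Its log2 fold change was 0.32 with a 95% interval of 0.08 to 0.57 (limma, unadjusted p = 0.0141, adjusted p = 0.300). Cry2 shares 295 exon bases, 4.67% of its exon length, with a low antisense gene, D930015M05Rik, at a mean of 1.34 CPM.

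The Rev-erb receptors repress Arntl. Nr1d2 (chr14:18204054-18239127, - strand) separated the groups, with vehicle values of 71.5, 76.8, 58.8, 69.0 and 66.8 CPM and quinpirole values of 79.3, 119, 89.7, 109.8 and 91.9 CPM. The gap between the highest vehicle and the lowest quinpirole library was small beside the spread within the quinpirole group. Means were 68.6 ± 6.63 and 98.0 ± 16.3 CPM (SD, n = 5 each). The log2 fold change was 0.50 with an SE of 0.12 and a 95% interval of 0.24 to 0.75, at an unadjusted p of 0.00115 and an adjusted p of 0.183 by limma and an adjusted p of 0.0152 by DESeq2. Without quinpirole replicate 2 it was 0.42.

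Nr1d1 (chr11:98767932-98775333, - strand) did not separate the groups, with vehicle values of 19.6, 26.6, 16.4, 13.2 and 18.3 CPM and quinpirole values of 18.7, 28.1, 21.4, 36.7 and 15.6 CPM. Quinpirole replicates 2 and 4 were above every vehicle library, and quinpirole replicate 5 was below 4 of the 5. The log2 fold change was 0.31 (95% interval -0.19 to 0.81, limma adjusted p = 0.647), and 0.15 without quinpirole replicate 4 or 0.20 without vehicle replicate 4. Nr1d1 shares 263 exon bases, 8.55% of its exon length, with Thra on the opposite strand, at a mean of 15.4 CPM. Whether the counting used strand is not given in the sources used here, so the level of Nr1d1 is uncertain.

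**Figure D2:**
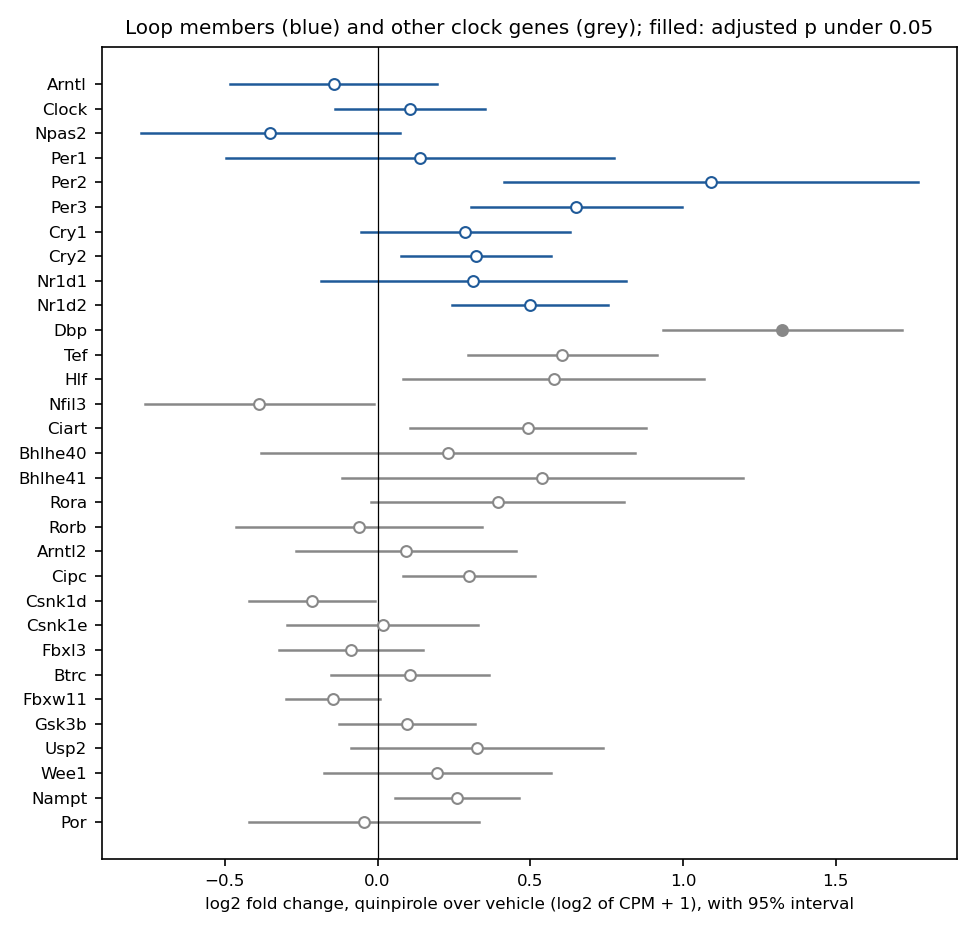
Log2 fold change (quinpirole over vehicle, on log2(CPM + 1)) of the clock members and the other clock genes, with 95% intervals from limma and markers for a called gene. The intervals of Per2, Per3, Cry2 and Nr1d2 lie above 0, those of the other 6 members include 0, and Dbp is the gene that passed the adjusted threshold.

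Levels of different genes can be set beside each other only per length, so each was divided by the length of its annotated exons. In the vehicle group the order from the top was Nr1d2 at 12.7 ± 1.23, Clock at 11.8 ± 0.955, Per1 at 8.18 ± 4.37, Cry1 at 6.28 ± 1.14 and Nr1d1 at 6.11 ± 1.62 CPM per kb (SD, n = 5). Below them came Per3 at 4.04 ± 0.547, Cry2 at 3.89 ± 0.492, Arntl at 3.79 ± 0.678, Per2 at 2.18 ± 1.05 and Npas2 at 0.530 ± 0.188 CPM per kb. Npas2 stood below Per2 by more than both SDs together, and no other pair of neighbours in that order differed beyond its spread. In the quinpirole group Nr1d2 was again the highest, at 18.1 ± 3.0 CPM per kb, ahead of Clock at 12.8 ± 2.01, and Npas2 again the lowest, at 0.362 ± 0.0921. Per2, at 4.76 ± 1.97, there preceded Arntl, at 3.44 ± 0.721 CPM per kb, with overlapping spreads.

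Ratios within a library are free of its scaling. The ratio of Per3 to Arntl in CPM was 1.46, 1.54, 1.02, 1.84 and 1.13 in the vehicle libraries and 2.71, 3.97, 2.12, 1.66 and 2.11 in the quinpirole libraries. Quinpirole replicate 4, which had the group's highest Arntl, lay inside the vehicle range. The ratio of Nr1d2 to Arntl ran from 1.83 to 3.02 with vehicle and from 3.22 to 5.10 with quinpirole, with no overlap. Nr1d2 by itself also separated the groups. The ratio of Per2 to Per1 ran from 0.239 to 0.338 with vehicle and from 0.326 to 1.26 with quinpirole, with a slight overlap. The ratio of Cry1 to Cry2 overlapped, at 0.635 to 1.08 with vehicle and 0.681 to 1.08 with quinpirole. So did Nr1d1 to Nr1d2, at 0.191 to 0.346 with vehicle and 0.170 to 0.334 with quinpirole. Arntl to Clock overlapped too (0.129 to 0.213 against 0.134 to 0.160), as did Npas2 to Clock (0.00969 to 0.0212 against 0.00838 to 0.0137). All these ratios were chosen with the members' values known and carry no test.

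A list of 22 other clock genes gave 21 that were tested, since Fbxl21 was below the filter. Of the 21, 15 were higher and 6 lower with quinpirole, with a median log2 fold change of 0.20 against -0.0021 for all genes, and the limma test called 1, Dbp. Over all genes 49.6% were higher and 0.0206% were called. At an unadjusted p of 0.05 limma passed 6 of the 21 as higher and 2 as lower, beside the 6.92% and 4.47% of all genes that passed in each direction. Dbp, an activator at D-boxes and a direct output of the loop, rose from 6.40 ± 1.29 CPM with vehicle to 17.8 ± 4.86 CPM with quinpirole (SD, n = 5 each). Its log2 fold change was 1.33, SE 0.18 (limma adjusted p = 0.0441, DESeq2 adjusted p = 5.40e-08). Its vehicle values were 6.91, 5.12, 5.37, 8.31 and 6.29 CPM and its quinpirole values 13.5, 25.9, 18.0, 16.8 and 14.7 CPM, with no overlap. Dbp was not called in 13 of 24 alternative settings, among them the omission of any single library other than vehicle replicate 5, which gave adjusted p-values of 0.0511 to 0.133 by limma. Its limma adjusted p was 0.107 with the replicate number as a block, 0.246 with the muscle mean as a covariate and 0.170 without the 3 libraries lowest in hair shaft genes. Its log2 fold change was 0.98 to 1.47 over all 24. Dbp shares 539 exon bases, 18.0% of its exon length, with Sphk2, which averaged 34.2 CPM, so its level is uncertain in the way given for Nr1d1.

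Tef, another D-box activator, held 52.9, 54.5, 42.8, 45.3 and 46.5 CPM with vehicle and 67.9, 107, 71.2, 59.2 and 71.7 CPM with quinpirole. Its groups did not overlap, and its log2 fold change was 0.61 (limma adjusted p = 0.182, DESeq2 adjusted p = 0.0152). Cipc, an inhibitor of CLOCK, held 48.2, 63.6, 53.2, 53.2 and 54.2 CPM with vehicle and 61.8, 80.5, 66.7, 66.3 and 61.4 CPM with quinpirole. Only vehicle replicate 2 reached into the quinpirole range of Cipc, and the log2 fold change was 0.30 (limma, unadjusted p = 0.0105, adjusted p = 0.281). In the other direction, Nfil3, the D-box repressor, had vehicle values of 14.2, 12.8, 17.8, 20.2 and 14.7 CPM and quinpirole values of 13.5, 8.44, 12.3, 15.6 and 10.3 CPM. Its groups overlapped, at a log2 fold change of -0.39 (limma, unadjusted p = 0.0435, adjusted p = 0.419). The ratio of Dbp to Nfil3 ran from 0.301 to 0.487 with vehicle and from 1.0 to 3.07 with quinpirole. Dbp and Nfil3 were named for small p in opposite directions in these same libraries. A gap between the groups was therefore built into their ratio, which carries no test.

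By role, the 4 output genes of the D-box arm had a median log2 fold change of 0.59, with 3 higher and Nfil3 lower. The 7 accessory regulators, among them Cipc and the BHLHE genes, had a median of 0.30, with 6 higher and 0 called. The 6 tested genes of protein turnover, which control how long PER and CRY proteins last, were 3 higher and 3 lower, with a median of -0.036. The lowest unadjusted p among lower genes there belonged to Csnk1d, a kinase of the PER proteins (log2 fold change -0.21, limma adjusted p = 0.420), and Fbxw11, part of a ubiquitin ligase for PER (-0.15, adjusted p = 0.464). The 4 further E-box targets had a median of 0.23, with 3 higher and 0 called. Per1 and other clock genes also respond to glucocorticoids and to growth stimuli, and those lists were read beside them. Of 13 glucocorticoid-responsive genes 4 were higher and 9 lower (median -0.083, 0 called), and of 14 immediate-early genes 6 were higher and 8 lower (median -0.047, 0 called). At an unadjusted p of 0.05 limma passed 2 of the former as lower and 1 of the latter as higher. Of all genes 4.47% passed as lower and 6.92% as higher, 49.6% had higher fitted values and 0.0206% were called.

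Co-variation of the members between libraries was read next. Correlations were computed on log2(CPM + 1) over the 10 libraries for all 45 pairs of members, with two-sided permutation tests of 100000 resamples adjusted over the 45. The resamples ignored the groups, so these p-values also take in the difference between vehicle and quinpirole. They do not measure co-variation within a group, and no p was computed for values with group means removed. By Pearson's r 5 pairs were called, all among Per2, Per3, Cry1, Cry2 and Nr1d2 and none with Arntl, Clock, Npas2, Per1 or Nr1d1, and by Spearman's rho 1 was. The share of called pairs among other genes was not computed, so this count cannot be read as particular to clock genes. By r with Per3, Nr1d2 ranked 13, Per2 146 and Cry2 152 among the 14547 other genes tested. Per3 and Nr1d2 had r = 0.92 (permutation p = 5.00e-05, adjusted p = 0.00225) and rho = 0.93 (permutation p = 3.30e-04, adjusted p = 0.0148). Leaving out the 2 libraries farthest from the median of Per3 gave r = 0.85, and r was 0.78 after the group means were removed. Without quinpirole replicate 2, Per3 and Nr1d2 kept r = 0.89, at an adjusted permutation p of 0.0751.

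The other called pairs were closer to the threshold. Per2 with Cry1 had r = 0.84 (permutation p = 0.00199, adjusted p = 0.0448) and rho = 0.79 (permutation p = 0.00901, adjusted p = 0.101), and r = 0.79 with group means removed. Per2 with Per3 had r = 0.83 (permutation p = 0.00385, adjusted p = 0.0457) and rho = 0.73 (permutation p = 0.0206, adjusted p = 0.181), and r = 0.60 with group means removed. Per3 with Cry2 had r = 0.82 (permutation p = 0.00478, adjusted p = 0.0457) and rho = 0.84 (permutation p = 0.0038, adjusted p = 0.0855), and r = 0.58 with group means removed. Cry2 with Nr1d2 had r = 0.80 (permutation p = 0.00508, adjusted p = 0.0457) and rho = 0.79 (permutation p = 0.00882, adjusted p = 0.101), and r = 0.52 with group means removed. Leaving out the 2 libraries farthest from the median of the first-named gene gave r = 0.77, 0.73, 0.67 and 0.76 for these 4 pairs, in that order. Without quinpirole replicate 2, 0 of the 45 pairs were called, and the r of these 4 ranged from 0.69 to 0.75. Leaving out another single library left 1 to 4 of the 45 called.

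No inverse relation of Arntl to the Per3 and Nr1d2 arm passed this test. Its r with Per3 was -0.29 (adjusted permutation p = 0.612) and rho -0.26, with Nr1d2 it was -0.11, and with Nr1d1 it was 0.33. Arntl lay closer to Per1, at r = 0.67 (adjusted permutation p = 0.178), rho = 0.66 and r = 0.75 with group means removed, and to Npas2, at r = 0.60 (adjusted permutation p = 0.261) and rho = 0.72. None of these Arntl pairs passed the adjusted threshold. The Rev-erb pair Nr1d1 and Nr1d2 had r = 0.69 (adjusted permutation p = 0.155) and rho = 0.61, with r = 0.25 once the 2 libraries most extreme in Nr1d1 were left out.

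**Figure D3:**
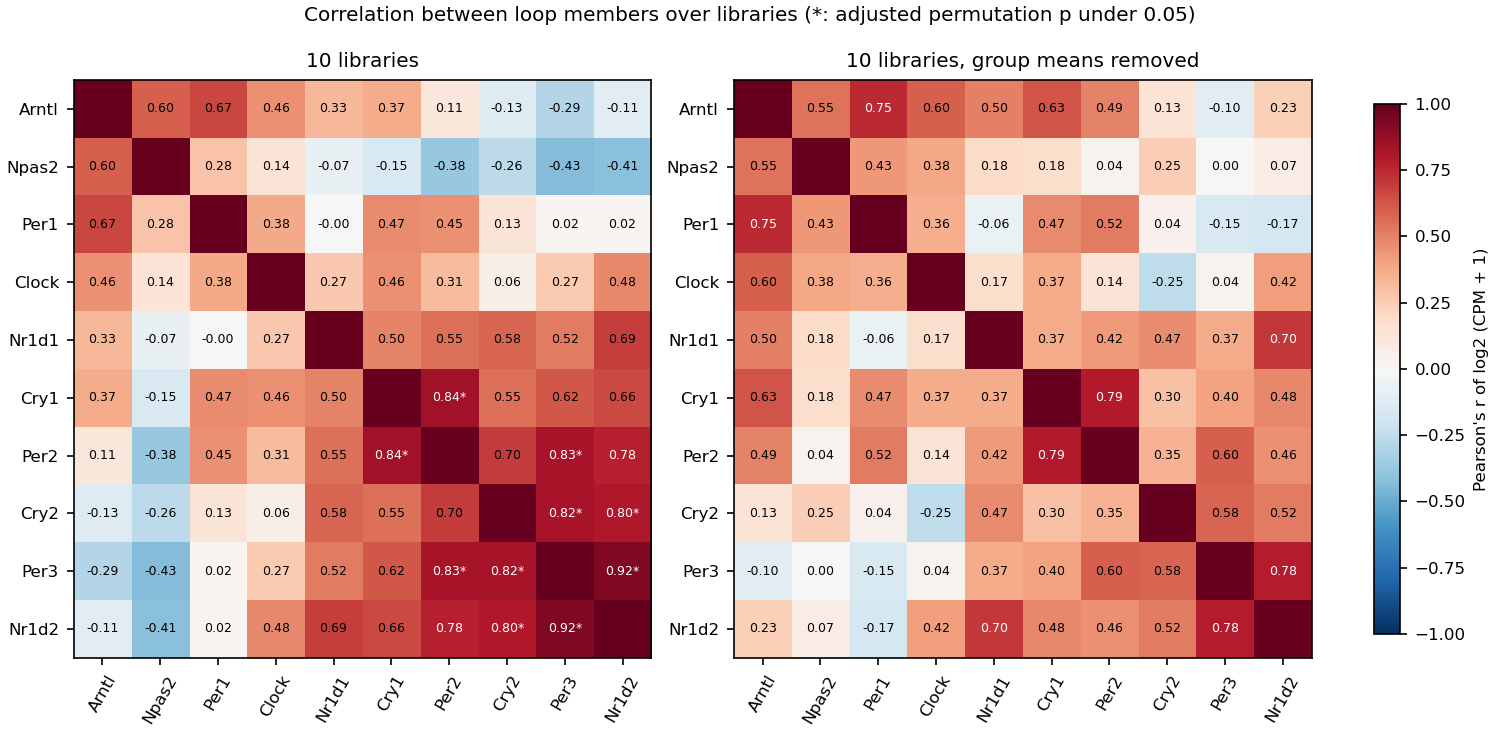
Pearson's r of log2(CPM + 1) between the 10 clock members over the 10 libraries, on the left as measured and on the right with each group's mean removed, on a colour scale from -1 to 1, with asterisks for an adjusted permutation p under 0.05. The block of Per2, Per3, Cry1, Cry2 and Nr1d2 holds the 5 marked pairs, led by Per3 with Nr1d2 at 0.92, and Arntl is near or below 0 with Cry2, Per3 and Nr1d2.

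The tissue content of the libraries also varied, and its values stand beside the members here. The mean log2(CPM + 1) of 29 hair shaft genes ran from 0.49 to 6.52 in the vehicle group (5.47, 6.47, 6.52, 3.64 and 0.49 in replicates 1 to 5) and from 0.60 to 6.58 in the quinpirole group (6.58, 0.72, 4.30, 0.60 and 2.95). Vehicle replicate 5 and quinpirole replicates 2 and 4 therefore were the libraries lowest in hair shaft RNA, with means under 1. The highest library of each of the 10 members was 1 of these 3, where 42.9% of all genes tested had their highest library among them. Vehicle replicate 5 was the highest for Arntl, Npas2 and Per1, quinpirole replicate 2 for Per2, Per3, Cry1, Cry2 and Nr1d2, and quinpirole replicate 4 for Clock and Nr1d1. All 29 hair shaft genes had lower fitted values with quinpirole (median log2 fold change -1.59), and 0 of them were called. Among all genes tested 49.6% had higher fitted values and 0.0206% were called.

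The mean of 25 skeletal muscle genes ran from 4.81 to 6.40 with vehicle and from 5.70 to 7.71 with quinpirole, and 24 of the 25 were higher (median log2 fold change 1.14). By limma 0 of them were called, 18 passed an unadjusted p of 0.05 as higher, and 2 had groups that did not overlap, also as higher. Of all genes tested 6.92% passed as higher, and 1.34% did not overlap in this direction. Lists for other cells were read the same way: of 10 tested neutrophil genes 2 were higher and 8 lower (median -0.54), of 18 proliferation genes 1 was higher and 17 lower (median -0.29), and of 11 skin markers 5 were higher and 6 lower (median -0.028), with 0 called in each. At an unadjusted p of 0.05 limma passed 0 hair shaft genes, 1 neutrophil gene and 4 proliferation genes as lower, and 2 skin markers as higher. The shares of all genes were 4.47% as lower and 6.92% as higher. Fitted values were higher in 49.6% of all genes, and 0.0206% were called.

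Across the 10 libraries the members' correlations with the hair shaft and muscle means, 20 in all, gave 0 calls after adjustment. The resamples again ignored the groups. The strongest was Cry1 with hair shaft genes, at r = -0.84 (permutation p = 0.0035, adjusted p = 0.0692) and rho = -0.67 (permutation p = 0.038, adjusted p = 0.152). The r came to -0.78 with the 2 most extreme libraries left out and -0.42 without the 3 libraries low in hair. Clock with hair shaft genes had r = -0.71 and rho = -0.71, and Clock with muscle genes r = 0.70 and rho = 0.61 (adjusted permutation p of r = 0.119 each). Without vehicle replicate 4 the relations of Cry1 with hair and of Clock with muscle passed, at r = -0.91 and 0.89 (adjusted permutation p = 0.0155 each), and without quinpirole replicate 2 that of Cry1 with muscle did, at r = 0.88 (adjusted permutation p = 0.0298). Per2 with hair shaft genes had r = -0.70 (adjusted permutation p = 0.119) and rho = -0.59. Without the 3 libraries r was -0.23 for Per2 with hair, -0.95 for Clock with hair, 0.46 for Clock with muscle and 0.86 for Cry1 with muscle, which was 0.65 over all 10. With the hair shaft mean as a covariate the limma log2 fold change was 0.85 for Per2, 0.57 for Per3 and 0.44 for Nr1d2, and with the muscle mean as a covariate it was 0.97, 0.80 and 0.50 for these 3 genes. In the other members the hair and muscle covariates gave -0.23 and -0.47 for Arntl, -0.41 and -0.60 for Npas2, 0.16 and 0.10 for Cry1, 0.31 and 0.36 for Cry2, and 0.25 and 0.18 for Nr1d1. With the same covariates Per1 turned to -0.020 and -0.35, and Clock went to 0.033 and -0.068. Without the 3 libraries low in hair, a subset chosen after the data were seen, the log2 fold change was 0.96 for Per2, 0.51 for Per3, 0.33 for Nr1d2, 0.30 for Cry2, 0.19 for Cry1, 0.0043 for Nr1d1, 0.47 for Per1, 0.062 for Clock, -0.15 for Arntl and -0.21 for Npas2. In those 4 vehicle and 3 quinpirole libraries Per3 and Nr1d2 had r = 0.94, at an adjusted permutation p of 0.108. Of the other pairs called over all 10 libraries, Per2 with Cry1 there had r = 0.52 and Per3 with Cry2 0.69. Per2 with Per3 had 0.78 and Cry2 with Nr1d2 0.82. In that subset 0 pairs of members were called.

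**Figure D4:**
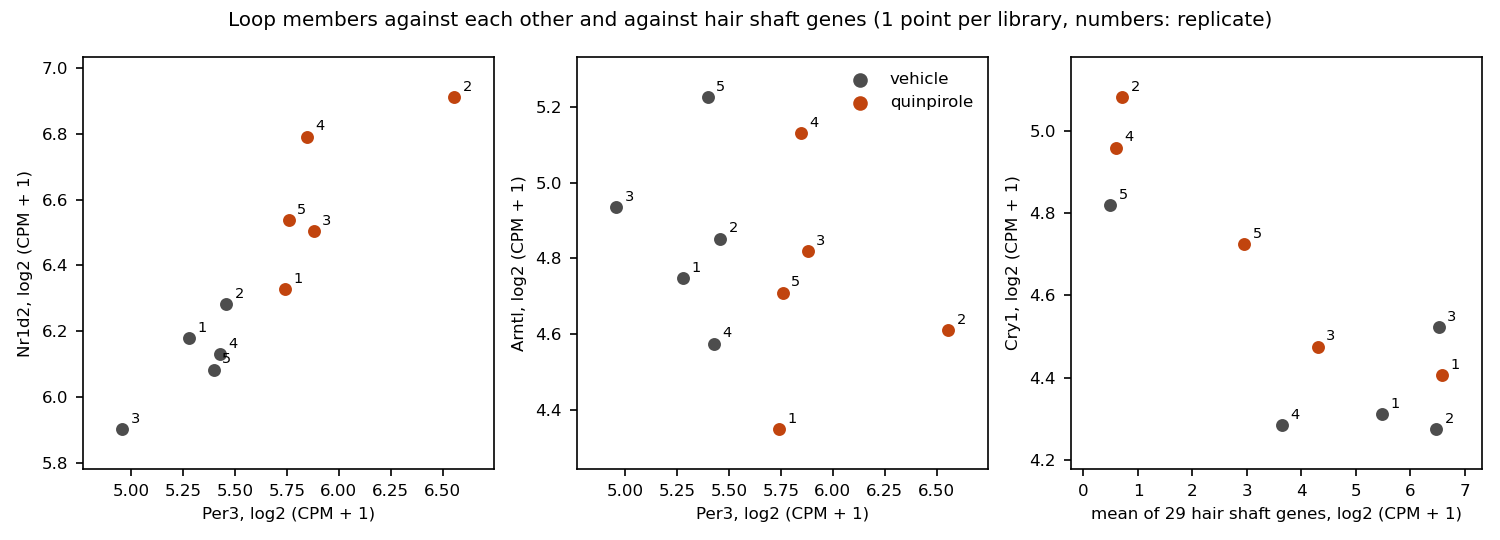
Scatter over the 10 libraries, vehicle and quinpirole marked separately, of pairs of clock genes and of a member against the hair shaft mean, on log2(CPM + 1) axes. Per3 and Nr1d2 are high in the same libraries (r = 0.92), Arntl and Per3 show no such relation (r = -0.29), and Cry1 is highest in libraries low in hair shaft RNA (r = -0.84, adjusted p = 0.0692).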

How the data were processed

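Total RNA of whole skin was depleted of ribosomal RNA and made into directional libraries, 5 per group, per the labels' protocols. Trimmomatic 0.38, RSEM 1.3.0, Bowtie2 and edgeR, with build mm10, are listed in the submitters' processing notes. Neither the annotation nor the strand setting of counting is stated in the labels.

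The table the authors deposited holds a normalised signal per gene. In it 100% of values were whole multiples of 1 read's worth, within 1e-06 of a read, and equalled CPM on TMM-scaled library sizes. Values were divided by 1 constant so that columns average to the CPM scale, and tested as log2(CPM + 1) where a gene reached 1 CPM in at least 5 libraries. The test was limma 3.58.1 with a trend in R 4.3.3, two-sided, without covariates, Benjamini-Hochberg adjusted over all genes. edgeR 4.0.16 and DESeq2 1.42.0 were run on the recovered reads. The fits were tested on simulated data.

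The members and gene lists were chosen with earlier results of these data known. Genes named are the members, of the other clock genes (Dbp and Tef counted among them) the 3 with the smallest limma p in each direction, and the 5 nearest and 5 most opposed genes to Arntl and Nr1d1 by Pearson's r, leaving out provisional symbols. Hlf, the genes with a library apart and the neighbours of Per3 were chosen after their values were seen. Intervals cover sampling error in the model only. The skin marker Flg was not analysed here. An item withheld from the lists is not reported here, and they were counted without it.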

Additional observations from a re-analysis of the deposited data

Results flagged for a closer look

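The 31 tested clock genes and the hair shaft and muscle means gave 66 groups of 5 libraries. In 8 of the 66, 1 library lay apart from the other 4. The rule flags about 1 in 20 groups of independent normal values. These groups share libraries and were read in CPM, so the count cannot be set against that rate. Among the members this was Per3, at 93.0 CPM in quinpirole replicate 2 against 52.5 to 57.9 CPM in the other 4 quinpirole libraries. The same library was apart for the D-box activator Tef, at 106.8 CPM against 59.2 to 71.7, for the D-box activator Hlf, at 15.7 CPM against 7.88 to 9.55, and for Cipc, an inhibitor of CLOCK, at 80.5 CPM against 61.4 to 66.7. Hlf was also apart in vehicle replicate 2, at 10.7 CPM against 4.32 to 5.87. In quinpirole replicate 4, Bhlhe40, a repressor at E-boxes, was apart at 305 CPM against 91.9 to 135, and Gsk3b, a kinase, at 259 CPM against 179 to 199. Rorb was apart at the low end in vehicle replicate 5, at 0.698 CPM against 1.38 to 1.45, from 5 reads against 10 or 11. Vehicle replicate 5 and quinpirole replicates 2 and 4 were the 3 libraries lowest in hair shaft genes, and the part of hair content in these values was not tested.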

How the results depend on the processing

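The main test called 3 genes. It called 5 with a pseudocount of 0.1, 6 without a filter, 5 with a filter of 5 CPM, 5 on library totals and 9 without a trend. edgeR called 1 and DESeq2 219. With the hair shaft mean as a covariate 14 were called and with the muscle mean 0, where 1235 genes passed an unadjusted p of 0.05. Leaving out 1 library gave 0 to 10. Of the members, 0 were called in the main test and 23 of 24 alternatives, and DESeq2 called 3. The members' median log2 fold change kept its sign in every alternative, from 0.14 to 0.36. That of the other clock genes was 0.11 with the muscle covariate and 0.11 to 0.26 when 1 library was left out. The sign turned in 2 members: Clock, at -0.068 with the muscle covariate, and Per1, at -0.020 with the hair covariate, -0.35 with the muscle covariate and -0.046 to 0.40 when 1 library was left out. The cause was not tested. Of the correlated pairs of members 1 was called on library totals, 3 after quantile normalization, 0 to 4 when 1 library was left out and 0 without the 3 libraries lowest in hair genes, where 7 libraries remain. Of the 20 relations with hair and muscle means, 0 to 2 were called when 1 library was left out.

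Replicate numbers recur in both groups. Deviations of same-numbered libraries correlated at -0.24 to 0.22, 3 of 5 above 0.1, and 1 of the 5 vehicle libraries correlated best with its own number, so the numbers were not taken as a pairing. With the replicate block 0 genes were called, 1576 passed an unadjusted p of 0.05, and 0 members were called. At 10 to 27 reads a library, depth limits Npas2.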

Other observations

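The 5 genes nearest to Arntl over the 10 libraries and the 5 most opposed to it were not clock genes. The 5 highest by Pearson's r of log2(CPM + 1) among all genes tested were Tmem63b (0.92), Abra (0.92), Mettl6 (0.90), Kdm2a (0.89) and Map3k2 (0.88), and the 5 lowest were Txndc16 (-0.92), Dact3 (-0.91), Chchd6 (-0.91), Ccbl2 (-0.90) and Insig1 (-0.89). Abra is a muscle gene, and Arntl correlated with the mean of the skeletal muscle genes at 0.49 (adjusted permutation p = 0.250). That r was 0.88 with group means removed and 0.12 without the 3 libraries lowest in hair shaft genes. Among the members Per1 ranked 461, Npas2 843 and Clock 2117 of the 14547 other genes. Of the other clock genes Por ranked 646 and Rora 1239, while Btrc was 74 from the bottom (r = -0.78) and Bhlhe41 483. With group means removed Rora ranked 89, Per1 626, Clock 1763 and Npas2 2235, and Btrc was 287 from the bottom. For Nr1d1 the 5 highest were Pex14 (0.93), Ube2e2 (0.91), Sh3d19 (0.90), Casz1 (0.89) and Wbp2 (0.89), and the 5 lowest were Cyb561a3 (-0.95), Hk3 (-0.93), Cmtr1 (-0.92), Pkn3 (-0.90) and Zfp110 (-0.89). With so many genes and 10 libraries, values of this size are a description.

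Per3, examined after its values were seen, had some clock genes near the top of its list and others far down it. Tef ranked 5, Nr1d2 13, Dbp 24, Cipc 30 and Hlf 50 of 14547, Per2 ranked 146 and Cry2 152, and Nfil3, the D-box repressor, was 214 from the bottom (r = -0.76). The remaining members ranked lower: Cry1 at 1110, Nr1d1 at 1908, Clock at 4359, Per1 at 7295, Arntl at 10672 and Npas2 at 12064. The nearest gene was Aldh3a1 (0.98). With group means removed Tef ranked 58, Hlf 88, Nr1d2 110, Dbp 132 and Cipc 165. Per2 then ranked 819 and Cry2 901, and Nfil3 was 767 from the bottom. These genes share libraries, depth and the difference between the groups.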
